A study of Mus musculus with 12 samples.

Results

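ncRNA_predict_5318, ncRNA_predict_28496 and ncRNA_predict_17856 are 3 predicted noncoding transcripts of mouse kidney, described here by their reads in every library of a Smad3 knockout study. They were chosen by identifier: ncRNA_predict_5318 carries the number of the RNA that published work calls Erbb4-IR, ncRNA_predict_28496 the number of Arid2-IR, and ncRNA_predict_17856 was taken with them. These are 3 of the 42452 transcripts that the tables of the study list. No cut on a measured value was used, but the choice was made with earlier results of these data known. Shares of all transcripts given beside them are therefore a description only. In wild-type (WT) mice, ncRNA_predict_5318 stood higher in both kinds of injured kidney than in normal kidney. In Smad3 knockout (KO) mice, it stood lower in injured than in normal kidney and had no read at all in nephritis. The other two showed much of the same order from far fewer reads. None of these differences passed the edgeR test used throughout, on all 12 libraries and adjusted over all tested transcripts, and some passed under other settings.

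Whole kidneys of mice on the C57BL/6J background were compared in 6 groups of 2 libraries each, 12 libraries in all. The normal groups were untreated mice of either genotype, WT or Smad3-KO. In the UUO groups (unilateral ureteral obstruction, a model of tubulointerstitial fibrosis), the left ureter was tied off and the obstructed kidney taken at day 5. The protocol gives groups of 8 animals of both genders for this model and also mentions sham-operated controls, while the control libraries are labelled normal. In the anti-GBM groups (glomerulonephritis raised against the glomerular basement membrane), mice were primed with IgG from sheep, given with Freund's complete adjuvant, and 5 days later received sheep globulin against mouse glomerular basement membrane at 60 μg per g, and these kidneys are from day 10. The labels do not say whether animals were pooled or whether the libraries of a group are separate animals, so the p-values measure only the spread between these libraries, which may be technical. Numbers such as KO UUO 1 name libraries and pair nothing across groups.

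Smad3 is a transcription factor that receptors for transforming growth factor β (TGF-β) phosphorylate, after which it enters the nucleus and binds regulatory DNA of genes for collagens, other matrix proteins and many noncoding RNAs. TGF-β/Smad3 signalling is among the best studied drivers of kidney fibrosis, and Smad3-deficient mice have been used widely to study it. Long noncoding RNAs that come from introns of protein-coding genes share the locus of a host gene but are measured as separate transcripts. Erbb4 encodes a receptor tyrosine kinase of the epidermal growth factor receptor family that binds neuregulins, and Arid2 encodes a subunit of a SWI/SNF chromatin remodelling complex.

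In the GENCODE annotation of the build used (NCBIM37, mm9), Erbb4 (ENSMUSG00000062209.8) lies at chr1:68078760-69154633 on the minus strand, and 98.85% of this span is intron. Arid2 (ENSMUSG00000033237.10) lies at chr15:96117953-96235894 on the plus strand, with 92.17% intron. The tables used here pair the 3 numbers with no position, strand, sequence or host gene, so that an origin in an intron of either gene was not tested. A host gene for ncRNA_predict_17856 is not known from the sources used here. None of the 3 carries a database match.

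The 12 libraries held 4595261 to 7342937 reads assigned to listed transcripts. WT UUO 1, KO UUO 1 and KO anti-GBM 1 had reads that covered much less of each transcript than randomly placed reads would: the covered length divided by that expectation had a median of 0.447, 0.285 and 0.338, against 0.636 to 0.911 in the other 9 libraries. These 3 are called low-breadth libraries below, and the main tests that rest on them are also given without them. Transcripts with 0 reads were common, at 12.72% to 65.75% of the 31600 predicted transcripts per library, with the highest share in KO anti-GBM 1. Smad3 mRNA and protein-coding markers of kidney cells were not analysed here, so the knockout was not checked against the labels. In whole-kidney RNA, fewer cells that make a transcript and less of it per cell cannot be told apart.

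The members differ in length and level. ncRNA_predict_5318 is 2180 bases long, longer than 97.0% of predicted transcripts, whose median length is 443 bases, and it drew 364 reads over 9 of the 12 libraries. ncRNA_predict_28496 has 658 bases and 69 reads over 7 libraries, and ncRNA_predict_17856 has 1002 bases and 68 reads over 7 libraries. Per length, as deposited RPKM (reads per kilobase of transcript and 1000000 listed reads) averaged over the 12 libraries, they stood at 2.10, 1.32 and 0.843, beside a median of 1.64 over all predicted transcripts. The second and the third are thus rarer than most predicted transcripts of these kidneys. The 4 injured WT libraries held 85.99% of the reads of ncRNA_predict_5318, 75.36% of those of ncRNA_predict_28496 and 69.12% of those of ncRNA_predict_17856, beside a median of 51.56% over all listed transcripts. Scaled by TMM, these shares were 75.98%, 59.79% and 52.39%, beside a median of 39.82%.

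ncRNA_predict_5318, the transcript numbered as Erbb4-IR, had 6 and 7 reads in the WT normal libraries, or 0.446 and 0.513 RPKM. It had 30 and 101 reads in WT UUO (2.99 and 6.31 RPKM), and 65 and 117 reads in WT anti-GBM (4.21 and 7.81 RPKM). Every injured WT library thus lay above both normal ones, and the injured models overlapped each other. In KO normal kidney it had 21 and 12 reads, or 1.58 and 0.923 RPKM, above both WT normal libraries. KO UUO gave 0 and 5 reads (0 and 0.371 RPKM), and KO anti-GBM gave 0 reads in both libraries, where 3 reads would have been 0.263 and 0.198 RPKM. All 4 injured KO libraries lay below every other library of the study. The gap was narrow, with 5 reads in KO UUO 2 and 6 in WT normal 1. How many of all transcripts show such an order was not counted. By group mean of CPM (counts per 1000000 reads, scaled by TMM, edgeR's correction for library composition), the order was WT anti-GBM at 10.3 ± 3.38 (SD, n = 2 here and for each group below), WT UUO at 6.43 ± 2.82, KO normal at 3.47 ± 1.08, WT normal at 1.39 ± 0.164, KO UUO at 0.416 ± 0.588, and KO anti-GBM at 0. The neighbours in this order whose libraries overlapped were the WT injured groups and the KO injured groups.

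ncRNA_predict_28496, the transcript numbered as Arid2-IR, had no read in either WT normal library, where 3 reads would have been 0.739 and 0.728 RPKM. It had 5 and 29 reads in WT UUO (1.65 and 6.00 RPKM) and 5 and 13 reads in WT anti-GBM (1.07 and 2.88 RPKM). The KO normal libraries had 10 and 5 reads, or 2.49 and 1.27 RPKM, which lay within the range of the injured WT libraries. KO UUO gave 0 and 2 reads (0 and 0.491 RPKM) and KO anti-GBM none, where 3 reads would have been 0.871 and 0.657 RPKM. The transcript was therefore seen at 5 or more reads in 3 groups, WT UUO at 1.58 ± 1.19 CPM, KO normal at 1.57 ± 0.629 CPM and WT anti-GBM at 1.01 ± 0.566 CPM, whose order is within their spread and changes with deposited RPKM, which puts WT anti-GBM ahead of KO normal. KO UUO, at 0.166 ± 0.235 CPM, lay below these 3 without overlap.

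ncRNA_predict_17856 had 2 and 0 reads in WT normal kidney (0.323 and 0 RPKM). In WT UUO it had 0 and 15 reads (0 and 2.04 RPKM), so that the whole WT UUO signal came from 1 library, WT UUO 2. In WT anti-GBM it had 8 and 24 reads (1.13 and 3.49 RPKM), both above normal. The KO normal libraries gave the closest pair of values among the 3 transcripts, 9 and 8 reads or 1.47 and 1.34 RPKM. KO UUO had 0 and 2 reads (0 and 0.323 RPKM), and KO anti-GBM had none. Mean CPM ran from 1.81 ± 0.00762 in KO normal and 1.78 ± 1.15 in WT anti-GBM, through 0.625 ± 0.884 in WT UUO, 0.213 ± 0.301 in WT normal and 0.166 ± 0.235 in KO UUO, to 0 in KO anti-GBM. Each neighbour in this order overlapped the next, and deposited RPKM put WT anti-GBM ahead of KO normal.

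**Figure D1:**
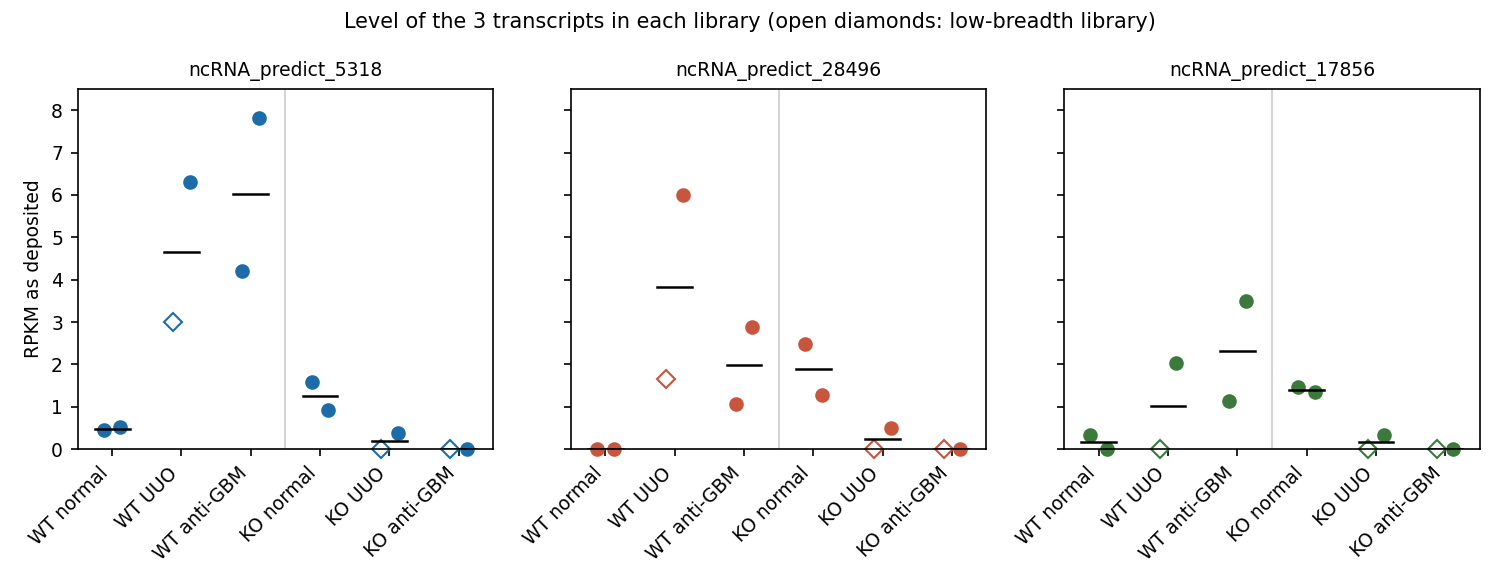
Deposited RPKM of each transcript (vertical axis, linear) in every library of the 6 groups (horizontal axis). Each symbol is 1 library and an open diamond a low-breadth library. ncRNA_predict_5318 reaches 7.81 RPKM in WT anti-GBM and is at 0 in both KO anti-GBM libraries, as are the other two.

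The first question was how injury went with these RNAs where Smad3 is present. ncRNA_predict_28496 and ncRNA_predict_17856 entered the tests only through their reads in injured WT libraries. That they were higher in injured WT kidney is therefore a description only. In WT UUO against WT normal, ncRNA_predict_5318 was 4.62-fold higher by mean CPM and 9.71-fold higher by mean RPKM, the gap between the figures being that between TMM scaling and scaling by total reads. Its fitted log2 fold change was 2.20 ± 1.11 (SE), with a Benjamini-Hochberg adjusted p of 0.341 in edgeR's quasi-likelihood test. ncRNA_predict_28496 was 4.92-fold higher, taking 3 reads over the group as the floor for WT normal, with adjusted p = 0.252 by edgeR. The lower 95% counting limit of its ratio was 4.35. ncRNA_predict_17856 overlapped between the groups. Its pooled ratio, from 15 against 2 reads, was 3.74 with a 95% counting interval of 0.870 to 33.7, and without WT UUO 2 the sign of its fitted change was opposite. No overlap was thus seen for 2 of the 3 transcripts, while 31% of all 24816 tested transcripts were as cleanly higher in WT UUO, and 2.42% passed the adjusted threshold in either direction.

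In WT anti-GBM against WT normal, all 3 were higher with no overlap, as were 32.7% of the tested transcripts. ncRNA_predict_5318 was 7.38-fold higher by mean CPM (12.6-fold by RPKM), with a log2 fold change of 2.87 ± 1.13 and adjusted p = 0.617 by edgeR. ncRNA_predict_28496 was 3.14-fold higher with WT normal at the floor of 3 reads (lower 95% counting limit 2.35, edgeR adjusted p = 0.753). ncRNA_predict_17856, with 32 against 2 reads, had a pooled ratio of 8.55 with a 95% counting interval of 2.18 to 73.6 (edgeR adjusted p = 0.883). Of all tested transcripts, 0.0201% passed the adjusted threshold here, so that it was met by hardly any transcript. Folds against a floor of 3 reads leave out the counting error of the other group, so they are not minimum folds. Limits and intervals hold the error of counting alone, and 1 molecule may give several reads.

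The injured models could not be ranked in WT kidney. WT UUO and WT anti-GBM libraries overlapped for all 3 transcripts, with log2 differences (UUO minus anti-GBM) of -0.67 ± 1.02 for ncRNA_predict_5318, 0.65 ± 1.73 for ncRNA_predict_28496 and -1.43 ± 1.83 for ncRNA_predict_17856. The edgeR adjusted p was 0.999 for each, with 0.0967% of all tested transcripts past the threshold. An SE of this size leaves room for differences of several fold in either direction.

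In Smad3 knockout kidney the order of injured and normal was the opposite one. ncRNA_predict_5318 was 8.35-fold lower in KO UUO than in KO normal by mean CPM, with a log2 fold change of -3.15 ± 1.22 and adjusted p = 0.750 by edgeR. ncRNA_predict_28496, with 2 against 15 reads, was lower by a pooled ratio of 12.4 (95% counting interval 2.87 to 111.3, edgeR adjusted p = 0.839). ncRNA_predict_17856, with 2 against 17 reads, was lower by a pooled ratio of 14.0 (3.32 to 124.9, edgeR adjusted p = 0.839). All 3 were lower without overlap, as were 19.3% of tested transcripts, and 0.0121% of tested transcripts passed the adjusted threshold. KO UUO 1, at 0 reads for each of them, is a low-breadth library. In KO UUO 2, which is not, the 5, 2 and 2 reads still lay below both KO normal libraries. For ncRNA_predict_5318, leaving out KO UUO 1 reduced the log2 fold change to -2.01 (edgeR adjusted p = 1), and leaving out all low-breadth libraries gave -2.06 (adjusted p = 0.417). Leaving out KO UUO 2 instead kept only the low-breadth library of its group, and the edgeR adjusted p was then 0.0174, or 0.0597 on the same 24816 transcripts as with 12 libraries.

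KO anti-GBM had 0 reads of all 3. Against KO normal, with KO anti-GBM at the floor of 3 reads, ncRNA_predict_5318 was 10.4-fold lower (edgeR adjusted p = 0.347). ncRNA_predict_28496 was 4.73-fold lower and ncRNA_predict_17856 5.44-fold lower (edgeR adjusted p = 0.557 for each). The lower 95% counting limits were 8.12, 3.44 and 3.96 in this order. Clean separation downward was seen for 28.6% of all tested transcripts in this comparison, and 0.0524% passed the adjusted threshold. ncRNA_predict_5318 passed here when any 1 of the 4 UUO libraries was left out, at edgeR adjusted p of 0.0147 to 0.0400, where the filter on low counts also let more transcripts in. On the same 24816 transcripts it missed the threshold whichever library was left out, with 0.111 as the lowest value, and passed it without the 3 low-breadth libraries (0.0278). Both KO anti-GBM libraries were at 0 for 13.5% of tested transcripts, and 5.69% were at 0 in these and in KO UUO 1 together, as all 3 transcripts were. Those 3 libraries also had the highest shares of predicted transcripts without a read, 65.75% in KO anti-GBM 1, 46.69% in KO anti-GBM 2 and 42.23% in KO UUO 1, against 12.72% to 39.23% elsewhere. The bearing of this on the members was not tested.

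Between genotypes, normal kidney and injured kidney differed in direction. In normal kidney all 3 transcripts were higher in KO than in WT without overlap, as were 19.7% of tested transcripts. ncRNA_predict_5318 was higher by a factor of 2.5 in mean CPM (log2 fold change 1.31 ± 1.11). ncRNA_predict_28496 was 4.90-fold higher with WT normal at the floor of 3 reads (lower 95% counting limit 3.57). ncRNA_predict_17856 was higher by a pooled ratio of 8.46, from 17 against 2 reads (95% counting interval 2.01 to 75.5). Their edgeR adjusted p was 1 each, and 0.0161% of tested transcripts passed the threshold.

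In obstructed kidney ncRNA_predict_5318 was 15.5-fold lower in KO than in WT by mean CPM and 25.1-fold lower by mean RPKM. The log2 fold change was -4.03 ± 1.23, with adjusted p = 0.502 by edgeR. Without KO UUO 1 it was -2.82 (edgeR adjusted p = 0.775), and without all low-breadth libraries it was -3.25 (adjusted p = 0.0737). Without KO UUO 2, whose 5 reads are the group's only ones, the edgeR adjusted p was 0.0164, or 0.0736 on the same 24816 transcripts. ncRNA_predict_28496 was lower by a pooled ratio of 14.0, from 2 against 34 reads (3.60 to 120.5, edgeR adjusted p = 0.910). ncRNA_predict_17856 overlapped, since WT UUO 1 also had 0 reads, and its pooled ratio was 6.19 (1.44 to 55.8, edgeR adjusted p = 0.985). Being lower without overlap, as ncRNA_predict_5318 and ncRNA_predict_28496 were, held for 19.4% of tested transcripts, and 0.00806% passed the adjusted threshold.

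In nephritis the difference between genotypes came closest to the threshold. ncRNA_predict_5318, at 65 and 117 reads in WT and 0 and 0 in KO, was 30.9-fold lower with KO at the floor of 3 reads. Its lower 95% counting limit was 25.2-fold and its edgeR adjusted p was 0.0624. Of the tested transcripts, 0.141% ranked ahead of it in this comparison by the edgeR test, and 0.0201% passed the adjusted threshold. At the same floor ncRNA_predict_28496 was 3.03-fold lower (lower limit 2.27, edgeR adjusted p = 0.337). ncRNA_predict_17856 was 5.36-fold lower (lower limit 4.22, edgeR adjusted p = 0.315). All 3 were lower in KO with no overlap, but so were 38.2% of tested transcripts, and the median log2 difference over all tested transcripts was -0.62 in the same direction. KO anti-GBM 2, which also had 0 reads, is not among the low-breadth libraries. Its breadth ratio of 0.636 was the lowest of the other 9 libraries, and 46.69% of predicted transcripts had no read in it. The bearing of this on the difference was not tested.

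**Figure D2:**
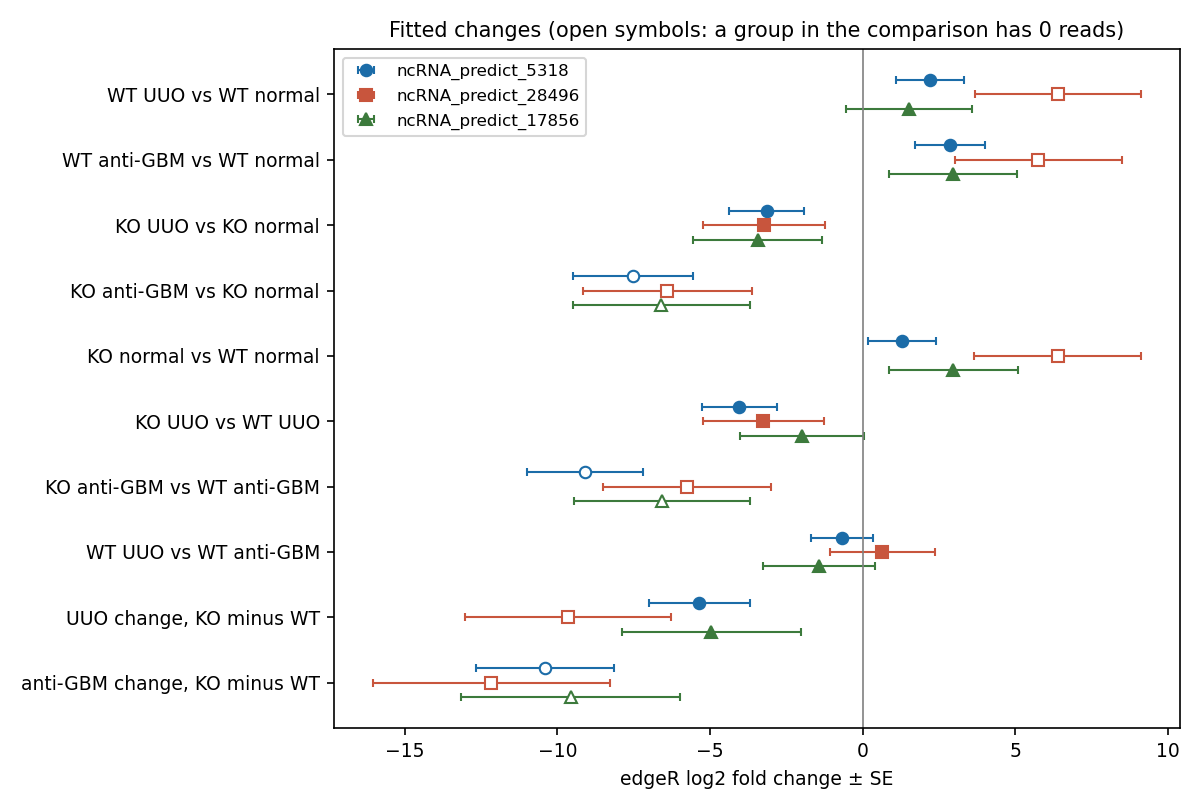
Fitted log2 fold changes (horizontal axis) with their SE for the 3 transcripts in the 10 comparisons (vertical axis), from edgeR on all 12 libraries. Symbols lie right of 0 for injury in WT and left of 0 for injury in KO. Open symbols involve a group with 0 reads, and the size of these depends on the prior count of the fit.

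Whether the injury response depended on genotype was tested as an interaction, the log2 change in KO minus that in WT. For UUO it was -5.34 ± 1.65 for ncRNA_predict_5318 (edgeR adjusted p = 0.446) and -4.96 ± 2.93 for ncRNA_predict_17856 (edgeR adjusted p = 0.977). The value for ncRNA_predict_17856 rests on WT UUO 2, without which it was 0.085. For ncRNA_predict_28496, with a group at 0, only the edgeR adjusted p of 0.610 is given. For anti-GBM nephritis, where KO had no reads, the edgeR adjusted p was 0.159 for ncRNA_predict_5318, 0.384 for ncRNA_predict_28496 and 0.432 for ncRNA_predict_17856. For ncRNA_predict_5318 the UUO interaction was -4.12 without KO UUO 1 and -4.56 without all low-breadth libraries. KO UUO 2 stands alone in its group in both fits, as does WT UUO 2 in the latter. The adjusted threshold was passed by 0.0604% of tested transcripts for UUO and by 0.0161% for anti-GBM nephritis.

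A pattern of every injured WT library above both WT normal libraries and every injured KO library below both KO normal libraries was seen in nephritis for all 3 transcripts and for 10.2% of tested transcripts. In obstruction it was seen for ncRNA_predict_5318 and ncRNA_predict_28496 and for 2.94% of tested transcripts. Both of these showed it in both models, as did 0.979% of tested transcripts, or 243 transcripts. For ncRNA_predict_5318 in obstruction it needs WT UUO 1 to lie above WT normal, and the 30 reads there cover only 98 bases.

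Over the 3 transcripts and 10 comparisons, 0 of 30 results passed an adjusted p of 0.05 in edgeR, and 17 of 30 had an unadjusted p under 0.05, where 8.16% of the results of all tested transcripts did. The comparisons share libraries, so these 17 results are not independent. DESeq2 gave an adjusted p for ncRNA_predict_5318 only, of which 5 of 10 passed, beside 2.56% of the DESeq2 results of all transcripts. limma on log2(RPKM + 1) called 2 of 30 results, beside 1.36% over all transcripts, and limma on log2(RPKM + 0.1) called 0 of 30, beside 0.386%. With the 3 low-breadth libraries left out, edgeR called 9 of 30, beside 3.85%, or 8 of 30, beside 3.47%, on the same 24816 transcripts as before. An exact permutation test of 2 libraries against 2 cannot give a p below 0.3333, so every call rests on a spread pooled over the libraries. Without the low-breadth libraries, WT UUO, KO UUO and KO anti-GBM add nothing to that spread, since the library left in each stands alone.

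The genotype difference of ncRNA_predict_5318 in nephritis lay close enough to the threshold for the choice of method to decide it. It passed in 17 of 21 alternatives. Of these, 11 leave out 1 library, with edgeR adjusted p between 0.000182 and 0.0388, and 0.0741 was reached without WT anti-GBM 2. Those fits changed the filter on low counts as well, since a group of 1 library lets more transcripts through, 32560 to 35973 in place of 24816. With no filter and all 12 libraries the edgeR adjusted p was already 0.00214. Calls over all transcripts in this comparison moved as well, from 4 higher and 1 lower as reported. On 12 libraries they were 91 and 92 with no filter, 162 and 369 with DESeq2, and 17 and 13 with DESeq2 size factors. They were 5 and 203 with library size alone and 517 and 94 with breadth as a covariate. The stricter filter gave 0 and 0, and limma gave 0 and 1 or 1 and 52 with pseudocounts of 1 and 0.1.

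With the 24816 transcripts kept, a setting added after seeing the data, 4 of 12 fits passed, those without KO UUO 1, KO UUO 2, WT UUO 1 or WT UUO 2 (edgeR adjusted p 0.0117 to 0.0472), none of which is a library of this comparison. The other 8 did not pass, at up to 0.406 without WT anti-GBM 2. Without the low-breadth libraries the edgeR adjusted p was 5.916e-05, or 0.000560 on the same transcripts, with KO anti-GBM 2 alone in its group and taken to vary like the others. DESeq2 gave an adjusted p of 0.00163. A stricter filter on low counts gave an edgeR adjusted p of 0.116, and limma gave 0.0946 and 0.0677 with pseudocounts of 1 and 0.1. For the interaction in nephritis, 4 of all tested transcripts were called higher and 0 lower as reported. On 12 libraries these calls were 41 and 37 with no filter, 49 and 119 with DESeq2, and 6 and 7 with DESeq2 size factors. They were 3 and 29 with library size alone, 179 and 31 with breadth as a covariate, 1 and 0 with the stricter filter, and 0 with either limma fit. For ncRNA_predict_5318 this interaction passed in 13 of 21 alternatives, 8 of them with 1 library left out. On the same 24816 transcripts it passed in 2 of 12 such fits, without KO UUO 1 or KO UUO 2 (edgeR adjusted p 0.0197 and 0.0174), and reached 0.793 without WT normal 1.

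**Figure D3:**
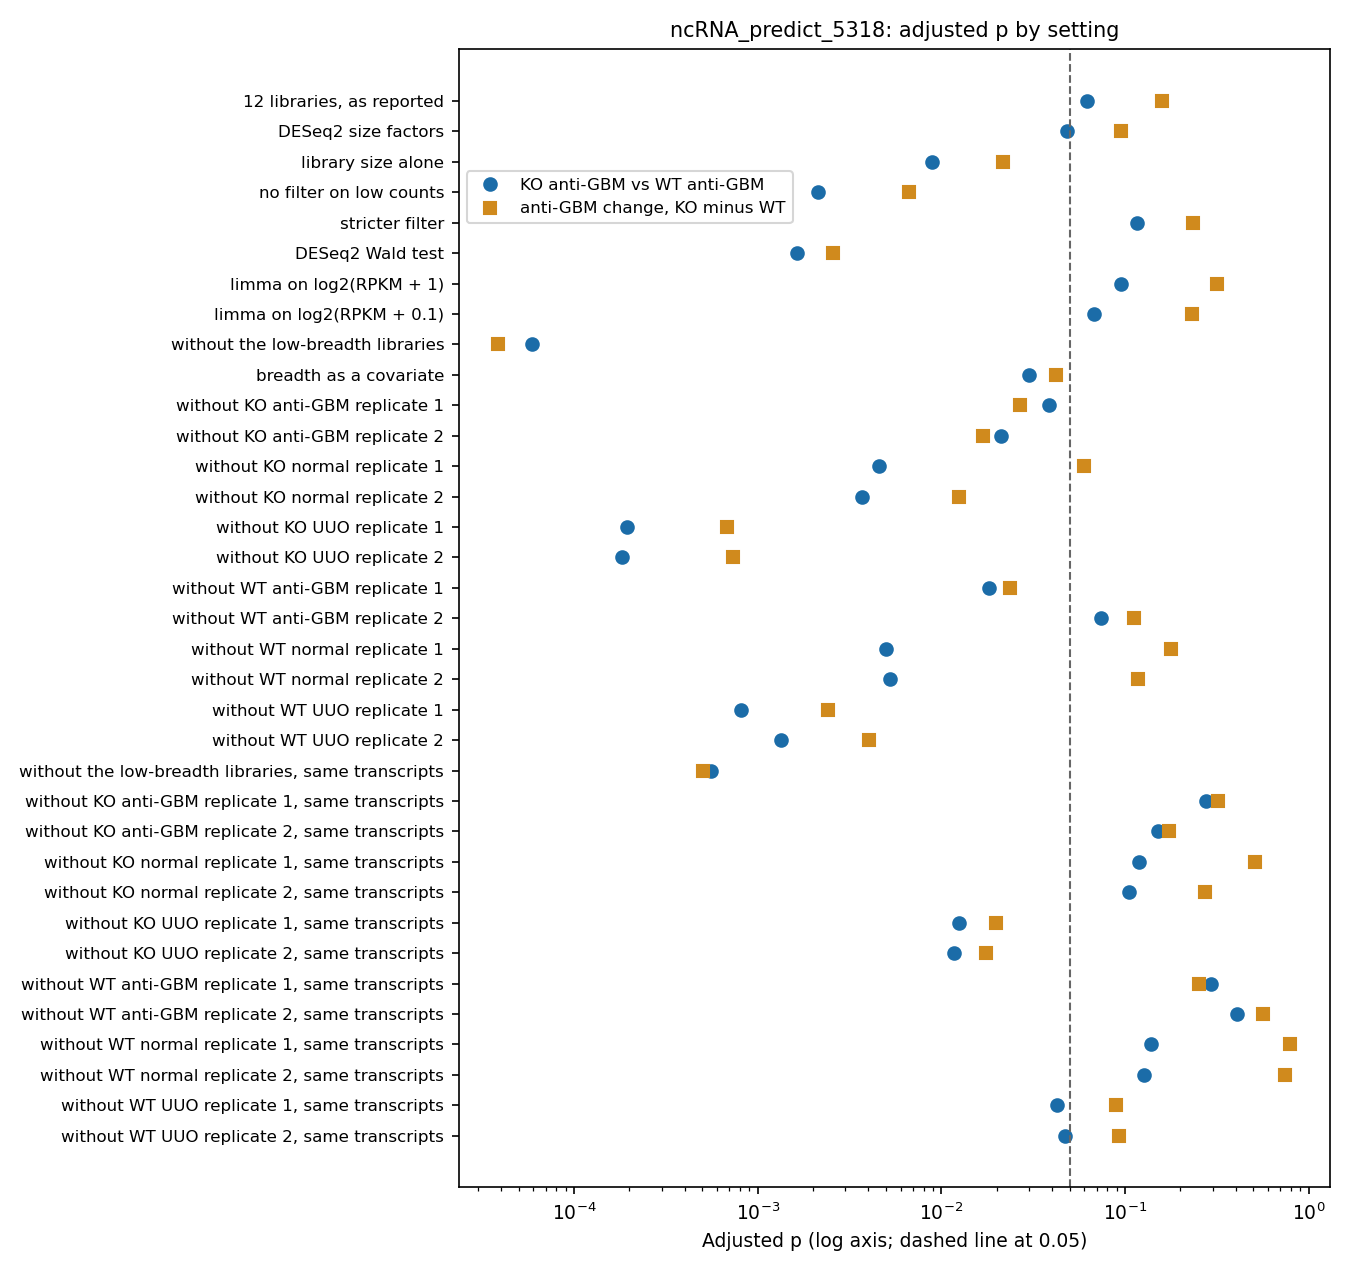
Adjusted p (horizontal axis, log scale, dashed line at 0.05) of ncRNA_predict_5318 under each alternative (vertical axis) for KO against WT in nephritis (circles) and for the interaction in nephritis (squares). The values on all 12 libraries, 0.0624 and 0.159, lie right of the line. In the upper 21 alternatives, 17 circles and 13 squares lie left of it, and with 1 library left out on the same transcripts 4 of 12 and 2 of 12 do.

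How the reads were spread along each transcript was looked at from the deposited share of covered length. In the well covered libraries the reads of ncRNA_predict_5318 spanned nearly the whole transcript, 97.94% of its 2180 bases from 117 reads in WT anti-GBM 2 and 89.17% from 101 reads in WT UUO 2. WT UUO 1 was an exception. Its 30 reads covered only 4.5% of the transcript, or 98 bases, where random placement of reads of 90 bases would cover 71.02%. If these bases are a single stretch, such reads can start at no more than 9 positions per strand, so that some of the 30 share a start. Whether such reads are copies of the same fragment was not tested. In that low-breadth library 0.851% of the transcripts with comparable read numbers were covered as sparsely, 54 of 6346, against 0 of 10922 in WT UUO 2. The level of ncRNA_predict_5318 in WT UUO 1 (2.99 RPKM) thus rests on 98 bases. Without the low-breadth libraries, WT UUO 2 stands alone in its group, with 101 reads beside 6 and 7 in the WT normal libraries.

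No such stacking was seen for the other transcripts, but the low-breadth libraries could hardly show it. In them ncRNA_predict_17856 had 0 reads, and ncRNA_predict_28496 had reads in WT UUO 1 only. ncRNA_predict_28496 was covered over 52.28% from 5 reads in WT UUO 1, beside 49.54% for random placement, and over 97.11% from 29 reads in WT UUO 2. ncRNA_predict_17856 was covered over 85.73% from 24 reads in WT anti-GBM 2. Apart from ncRNA_predict_5318 in WT UUO 1, the ratio of covered to randomly covered length ran from 0.662 to 1.10 over all libraries with reads of these transcripts.

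**Figure D4:**
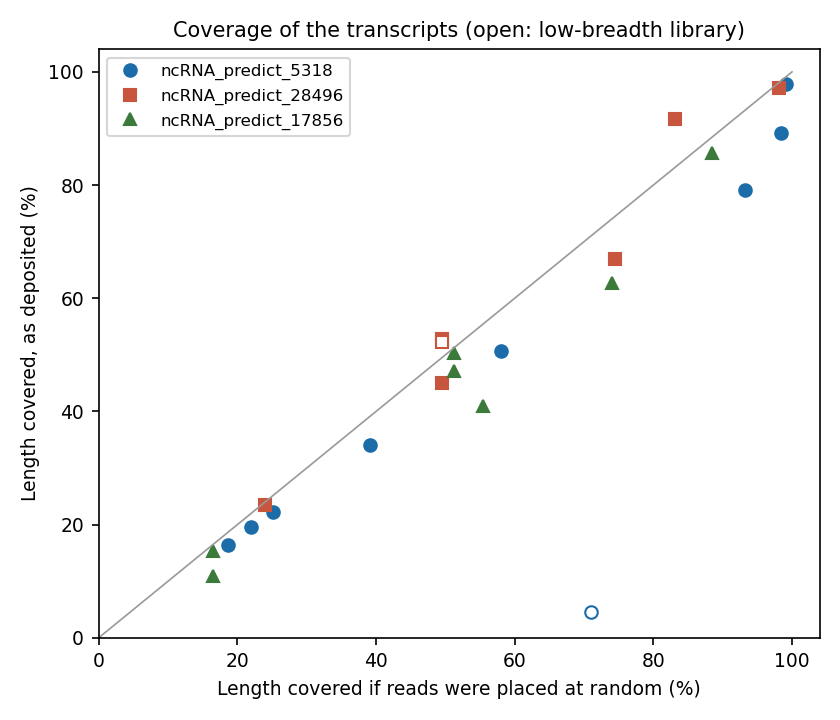
Share of each transcript covered by reads as deposited (vertical axis, %) against the share that the same number of reads would cover at random places (horizontal axis, %), 1 symbol per transcript and library with reads. Open symbols are low-breadth libraries. Symbols lie near the diagonal except ncRNA_predict_5318 in WT UUO 1, at 4.5% against 71.02%.

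The members resembled each other over the libraries, and other transcripts resembled each of them more. Pearson's r of log2 CPM over the 12 libraries was 0.826 between ncRNA_predict_5318 and ncRNA_predict_28496, 0.755 between ncRNA_predict_5318 and ncRNA_predict_17856, and 0.817 between ncRNA_predict_28496 and ncRNA_predict_17856. The points share libraries, depth and the zeros of the injured KO groups, so r is a description only. Among 24815 other tested transcripts, 73 had an r above 0.9 with ncRNA_predict_5318, 8 with ncRNA_predict_28496 and 29 with ncRNA_predict_17856.

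The transcripts most like ncRNA_predict_5318 were the predicted transcripts ncRNA_predict_191 (r = 0.980, n = 12), ncRNA_predict_17920 (r = 0.970) and ncRNA_predict_5811 (r = 0.970). ncRNA_predict_191 had 17 reads in WT normal, 193 in WT UUO, 168 in WT anti-GBM, 27 in KO normal, 10 in KO UUO and 0 in KO anti-GBM, summed over 2 libraries, an order of groups close to that of ncRNA_predict_5318. For ncRNA_predict_28496 they were ncRNA_predict_17086 (r = 0.945), ncRNA_aligned_11631, which matches the noncoding cDNA AK137978 (r = 0.932), and ncRNA_aligned_5161, which matches the noncoding cDNA AK037398 (r = 0.912). For ncRNA_predict_17856 they were ncRNA_predict_851 (r = 0.979), ncRNA_predict_1174 (r = 0.958) and ncRNA_predict_20061 (r = 0.957). Of these 9 transcripts, 8 also had 0 reads in KO anti-GBM, and the other, ncRNA_aligned_5161, had 34. Among all tested transcripts 13.5% had 0 reads there. The 9 were picked for likeness to members without reads in KO anti-GBM, so this count is a description only.

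Other noncoding RNAs tied to TGF-β/Smad3 or kidney fibrosis were looked up from a list of 33 names, of which the tables name 6, in 7 transcripts: mir-200b and mir-135a-1 precursors, Mir155, H19, Rmrp and a pair of Neat1 transcripts. In WT UUO against WT normal 1 of 7 passed the edgeR test, where 2.42% of all tested transcripts did. It was the mir-135a-1 precursor transcript, which fell by 2.98 ± 0.45 on the log2 scale (adjusted p = 0.000766), from 575 and 595 CPM to 97.5 and 51.2 CPM. The median log2 change of the 7 was 0.86, beside 0.49 over all tested transcripts. The same transcript was the only one of the 7 with a called interaction, in nephritis, which 0.0161% of tested transcripts had, and the KO minus WT change was 3.53 ± 0.61 (edgeR adjusted p = 0.0403). In WT it stood at 112 and 133 CPM in nephritis. In KO it stood at 232.5 and 257 CPM in normal kidney and 746 and 435 CPM in nephritis, the 746 CPM being from low-breadth KO anti-GBM 1. For nephritis this was the reverse of the order of the 3 members. In KO UUO it stood at 233.3 and 178 CPM, which overlapped KO normal. None of the 7 passed in the other 8 comparisons, in each of which under 0.1% of tested transcripts did. The mir-200b precursor transcript, of a microRNA family that holds back epithelial to mesenchymal transition, had a log2 change of 0.45 ± 0.53 in WT UUO (edgeR adjusted p = 0.720). The longer Neat1 transcript, which scaffolds nuclear paraspeckles, stood at 81.0 and 159 CPM in normal WT kidney, beside 539 and 1539 CPM in nephritic WT kidney (log2 change 3.11 ± 0.78, edgeR adjusted p = 0.296).

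Of 20 markers listed for kidney tubule, leukocytes, endothelium and fibroblasts, the tables name 3: Mir155, of activated leukocytes, an element of Spi1, the myeloid transcription factor PU.1, and an element of Vim, the intermediate filament of mesenchymal cells. The Spi1 transcript rose from 3.40 and 3.45 CPM in normal WT kidney to 44.5 and 50.4 CPM with obstruction (log2 change 3.79 ± 0.90, edgeR adjusted p = 0.0251). It stood at 11.4 and 11.4 CPM in WT anti-GBM, 0.605 and 16.2 CPM in KO normal, 13.3 and 16.5 CPM in KO UUO and 8.70 and 7.04 CPM in KO anti-GBM. It was thus higher with obstruction in WT kidney, where ncRNA_predict_5318 and ncRNA_predict_28496 were also higher. The Spi1 transcript was seen in both KO anti-GBM libraries, where these had no reads. Mir155, the marker of activated leukocytes, differed there, at 0 CPM in KO anti-GBM 1 and 1.57 CPM in KO anti-GBM 2. Vim stood at 197 and 140 CPM in normal WT kidney, 345 and 630 CPM in obstructed WT kidney, and 436 and 877 CPM in KO anti-GBM, its highest group. Mir155 ran from 0.431 and 0.850 CPM in WT normal to 1.04 and 8.84 CPM in WT UUO. The part of cell makeup in the levels of the 3 transcripts was not tested.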

How the data were processed

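RNA over 150 bp, depleted of ribosomal RNA, was sequenced in 12 kidney libraries, per the labels' protocols. The submitters' processing notes name the aligner Bowtie 0.12.7 and the genome build mm9. How transcripts were predicted, and any strand setting, is not given in the sources used here, so reads of antisense partners and of transcripts that overlap may be mixed. Per the file headers, each deposited table gives counts of uniquely mapped reads per transcript. The authors' RPKM equals reads per length and per total listed reads. Coverage is deposited as a percent of length and as a mean depth signal, from which a read length of 90 bases follows. Transcripts not listed in a library's table counted as 0 reads.

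Counts were tested in R 4.3.3 with edgeR 4.0.16 (TMM, filterByExpr keeping 24816 of 42452 transcripts, 1 mean per group, robust quasi-likelihood F tests of 10 contrasts on all 12 libraries, Benjamini-Hochberg adjustment over all tested transcripts, threshold 0.05). All 3 transcripts passed the filter on low counts, ncRNA_predict_28496 and ncRNA_predict_17856 only through their reads in injured WT libraries. Groups without reads were set at 3 reads over the group for folds. Pooled ratios divide summed reads by summed TMM-scaled library sizes, with exact 95% intervals. Breadth was the median ratio of covered to randomly covered length over transcripts of at least 500 bases with 20 to 200 reads. Alternatives were DESeq2 1.42.0 and its size factors, limma 3.58.1 on log2(RPKM + pseudocount), other filters and scaling, breadth as a covariate, and each library left out. Leaving libraries out without filtering again was added after seeing the data. The tests were checked on simulated data. Named were the 3 members, the 3 transcripts of highest r with each (log2 CPM, prior count 2), and the members of the lists; the members and lists were chosen with earlier results of these data known.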

Additional observations from a re-analysis of the deposited data

Results flagged for a closer look

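In 5 cases every injured WT library lay above both WT normal libraries while every injured KO library lay below both KO normal libraries. This opposite movement is why they are named here. The same pattern was seen for 10.2% of tested transcripts in nephritis and for 2.94% in obstruction. The test of the difference itself, the edgeR interaction of injury and genotype, passed in none of them with TMM scaling and the default filter on all 12 libraries. Other fits on 12 libraries called it for ncRNA_predict_5318 in nephritis, with edgeR adjusted p of 0.02159 with library size alone, 0.006649 with no filter and 0.04214 with breadth as a covariate, and in both models with DESeq2 (0.002574 and 0.03052 in UUO). The edgeR adjusted p as reported was 0.1589 for ncRNA_predict_5318 in anti-GBM nephritis and 0.4463 in UUO. It was 0.3839 for ncRNA_predict_28496 in anti-GBM nephritis and 0.6103 in UUO, and 0.4322 for ncRNA_predict_17856 in anti-GBM nephritis. The UUO case of ncRNA_predict_5318 rests in part on WT UUO 1, where its 30 reads cover only 98 bases.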

How the results depend on the processing

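No paired analysis was possible because the labels give no replicate numbers, and those used here only name libraries. Over 30 results (3 transcripts, 10 comparisons) and 590 alternative values, 536 kept their direction and side of the threshold, 49 kept their direction and passed it, and 5 changed sign. Fits that leave libraries out also let more transcripts through the filter, so 390 values on the transcripts of the 12-library fit were added after seeing the data, of which 372 kept direction and side, 14 passed and 4 changed sign. Values below are adjusted p, from edgeR unless named. For ncRNA_predict_5318, KO against WT in nephritis gave 0.04834 with DESeq2 size factors, 0.0089 with library size alone, 0.002135 with no filter, 0.001628 with DESeq2, 5.916e-05 without the low-breadth libraries and 0.02986 with breadth as a covariate. Its interaction in nephritis gave 0.02159 with library size alone, 0.006649 with no filter, 0.002574 with DESeq2, 3.873e-05 without the low-breadth libraries and 0.04214 with breadth. DESeq2 gave 0.03702 for KO anti-GBM against KO normal, 0.03176 for KO UUO against WT UUO and 0.03052 for the UUO interaction. limma with pseudocount 1 gave 0.0489 for ncRNA_predict_5318 and 0.04293 for ncRNA_predict_28496 in WT UUO against normal. Without the low-breadth libraries ncRNA_predict_5318 gave 0.01128 (WT UUO against normal), 0.00126 (WT anti-GBM against normal), 0.01224 (KO anti-GBM against normal) and 0.01209 (UUO interaction), ncRNA_predict_28496 gave 0.02526 (WT UUO against normal) and 0.02964 (nephritis interaction), and ncRNA_predict_17856 gave 0.03854 (nephritis interaction). On the same transcripts, leaving out the low-breadth libraries gave for ncRNA_predict_5318 0.01341 (WT UUO against normal), 0.0035 (WT anti-GBM against normal), 0.0278 (KO anti-GBM against normal), 0.0005595 (KO against WT in nephritis), 0.02299 and 0.0005058 (UUO and nephritis interactions), and for ncRNA_predict_28496 0.03029 (WT UUO against normal) and 0.0413 (nephritis interaction). Breadth as a covariate turned the sign of the WT UUO to WT anti-GBM difference of ncRNA_predict_5318 (0.9992).

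Leaving out 1 library at a time, with and without filtering again, the range for ncRNA_predict_5318 was 0.01742 to 1 for KO UUO against KO normal, 0.01466 to 0.9499 for KO anti-GBM against KO normal, 0.01637 to 0.8634 for KO UUO against WT UUO, 0.0001817 to 0.4064 for KO against WT in nephritis, 0.009085 to 1 for the UUO interaction and 0.0006815 to 0.7934 for that in nephritis. The low ends came with filtering again, without KO UUO 2, or without KO UUO 1 for KO anti-GBM against KO normal and the nephritis interaction. Without WT UUO 2 the sign turned for ncRNA_predict_17856 in WT UUO against normal (0.5837, and 0.5619 on the same transcripts, range 0.5619 to 0.9816), KO UUO against WT UUO (0.6834 and 0.7529, range 0.3095 to 1) and the UUO interaction (1 and 0.9585, range 0.2711 to 1), and for ncRNA_predict_28496 between WT UUO and WT anti-GBM (0.9235 and 0.9363, range 0.9235 to 1). A library that stood alone in its group was taken to vary like the others. The cause of these shifts was not tested. DESeq2 gave no adjusted p for ncRNA_predict_28496 and ncRNA_predict_17856, which also failed the stricter filter.

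Calls over all transcripts moved far more than 1.5 times: from 600 to between 414 and 3026 in WT UUO against normal, from 5 to between 0 and 1979 in WT anti-GBM against normal, from 3 to between 0 and 1344 in KO UUO against normal, from 13 to between 0 and 534 in KO anti-GBM against normal, from 4 to between 1 and 277 between normal kidneys, from 2 to between 1 and 450 between obstructed kidneys, from 5 to between 0 and 2046 between nephritic kidneys, from 15 to between 0 and 575 and from 4 to between 0 and 1409 for the UUO and nephritis interactions, and from 24 to between 2 and 458 between the WT models. Library size alone moved the median log2 change of all transcripts in WT UUO from 0.49 to 1.53, with 863 higher and 138 lower calls in place of 169 and 431. At 68 and 69 reads in all, ncRNA_predict_17856 and ncRNA_predict_28496 are limited by depth.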
